A study of Homo sapiens with 4 samples.

Results

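The 28 genes described here make, sense and move cholesterol. They were chosen by name, as enzymes of the mevalonate and sterol pathway, regulators of the SREBP transcription factors, and genes of sterol transport and efflux. All 28 were found among the 58735 genes of the table, each in 1 row. RNA was sequenced from Myla, an established human T cell line from mycosis fungoides, a lymphoma of the skin. The shFOXM1 group (2 libraries, labelled FOXM1 knockdown) received a lentivirus with a short hairpin RNA against FOXM1, and the shControl group (2 libraries, labelled WT) a lentivirus with a scrambled hairpin. Both groups were thus transduced, with virus medium (10 uL to a culture of 1 mL), and RNA was taken 72 h after a change of medium that followed transduction by 24 h. Whether both shFOXM1 libraries carry the same hairpin, and whether the cultures were transduced separately, is not stated, so the spread within a group may be technical or may hold a difference between hairpins, and p-values measure only that spread. The comparison asks how these genes stand after knockdown of FOXM1, a forkhead factor that drives mitotic genes.

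Recovered reads per library numbered 14147084 to 15017728. FOXM1, the target of the hairpin, was at 26.5 (shControl 1), 27.6 (shControl 2), 9.27 (shFOXM1 1) and 5.59 FPKM (shFOXM1 2), with a log2 fold change of -1.77 (SE 0.23) that did not pass the threshold of 0.05 (limma, adjusted p = 0.173). Of 11 T cell markers 8 reached 1 FPKM in at least 2 libraries, with a summed level of 631 to 634 FPKM in shControl and 513 to 699 FPKM in shFOXM1. CD4 was listed at 0 in every library, while CD3E was at most 0.138 FPKM and LCK at most 0.0211 FPKM. Of the 5 markers each for fibroblasts, keratinocytes, monocytes and B cells 1 reached that level per type. These were COL1A1 (at most 4.48 FPKM), KRT10 (8.18 to 11.1 FPKM), CSF1R (8.47 to 13.5 FPKM) and CD79A (0.270 to 7.38 FPKM). KRT10 and CSF1R were above the T cell marker PTPRC in every library. DCN, LUM, KRT1, KRT14, DSG1, FCGR3A and MS4A1 were listed at 0 throughout. In bulk RNA, fewer cells of a kind and less RNA per cell cannot be told apart. The shFOXM1 libraries stood further apart than the shControl libraries, so every library is given on its own.

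Cholesterol is built from acetyl-CoA through mevalonate, isoprenoid pyrophosphates, squalene and lanosterol. When sterol in the endoplasmic reticulum is low, the escort protein SCAP carries the SREBP precursors to the Golgi, where proteases free their transcription factor part. When sterol is plentiful, INSIG proteins hold SCAP and SREBP back, while oxysterols activate the LXR receptors, which induce efflux genes. Growing T cells are known to raise sterol synthesis for new membrane.

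SREBPs bind sterol regulatory elements and act with the CCAAT-binding factor NF-Y at many promoters of this pathway. RefSeq promoter windows (GRCh38.p14, 250 bases before to 50 after a transcription start) were at hand for 24 of the 28 genes, in 30 windows, without ACAT2, FDFT1, SQLE and ABCG1. On either strand, the 5 letters CCAAT of an NF-Y box were found for 17 of the 24 genes (70.8%), beside 43.6% of the 8113 tested genes with a window and 34.6% of all 35116 windows. NSDHL and MVK held 5 boxes in a window and MSMO1 4. The letters TCACNCCAC of a sterol regulatory element were found for SREBF2 alone among the 24 genes (4.17%), beside 1.32% of tested genes and 1.13% of all windows. The E-box CACGTG was present for 5 of the 24 genes (20.8%), beside 13.0% of tested genes and 7.26% of all windows. The GC box GGGCGG was present for 23 (95.8%), beside 77.8% of tested genes and 45.0% of all windows. For the letters TTTGAA of the cell cycle element CHR, through which FOXM1 is known to be recruited with MuvB, the count was 2 of 24 (TM7SF2 and DHCR7), or 8.33%, beside 13.1% of tested genes and 15.2% of all windows. The forkhead core TAAACA was found for 2 of 24 (TM7SF2 and ABCA1), beside 9.44% of tested genes and 12.3% of all windows. These are matches of letters, not measured binding. For the sterol regulatory element only this 1 string was searched, and only within the windows. Other forms of the element, or elements elsewhere, would be missed, so a gene without a match may still hold one.

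Stretches upstream of the start are shown for 6 genes because they cover the range of levels described below. DHCR7 and STARD4 lay lower in shFOXM1, MSMO1 higher, NSDHL near its control level and HMGCS1 on both sides. SREBF2 holds the letters TCACNCCAC. They lie at chr22:41832960-41833015 (SREBF2, plus strand), chr5:43313496-43313579 (HMGCS1, minus strand), chr4:165327472-165327651 (MSMO1, plus strand), chr11:71448425-71448499 (DHCR7, minus strand), chr5:111512649-111512708 (STARD4, minus strand) and chrX:152830823-152830995 (NSDHL, plus strand). Capitals mark NF-Y boxes on either strand and, in SREBF2, also the match to TCACNCCAC, which is the longer run. In NSDHL 2 boxes on opposite strands overlap. In GENCODE 29 the STARD4 stretch lies within the antisense gene STARD4-AS1, outside its exons, and the SREBF2 stretch within an exon of SREBF2-AS1. The DHCR7 stretch lies inside the annotated gene, whose outermost start is further upstream, with 11 of its 75 bases in an exon. The HMGCS1, MSMO1 and NSDHL stretches reach 17, 29 and 29 bases into exons of these genes.
SREBF2: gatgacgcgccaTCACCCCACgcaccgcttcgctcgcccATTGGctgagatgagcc
HMGCS1: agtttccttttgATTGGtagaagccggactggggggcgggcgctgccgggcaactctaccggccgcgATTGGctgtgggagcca
MSMO1: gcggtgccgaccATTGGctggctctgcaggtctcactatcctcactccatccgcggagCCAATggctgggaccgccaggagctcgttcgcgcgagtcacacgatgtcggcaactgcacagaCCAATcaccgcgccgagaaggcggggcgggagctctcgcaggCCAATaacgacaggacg
DHCR7: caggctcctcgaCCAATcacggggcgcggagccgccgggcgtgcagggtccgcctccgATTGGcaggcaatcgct
STARD4: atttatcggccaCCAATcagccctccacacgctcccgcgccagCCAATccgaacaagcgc
NSDHL: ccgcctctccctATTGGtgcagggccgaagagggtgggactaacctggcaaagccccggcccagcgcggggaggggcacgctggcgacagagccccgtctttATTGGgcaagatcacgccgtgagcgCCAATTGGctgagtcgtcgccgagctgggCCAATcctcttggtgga

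**Figure D1:**
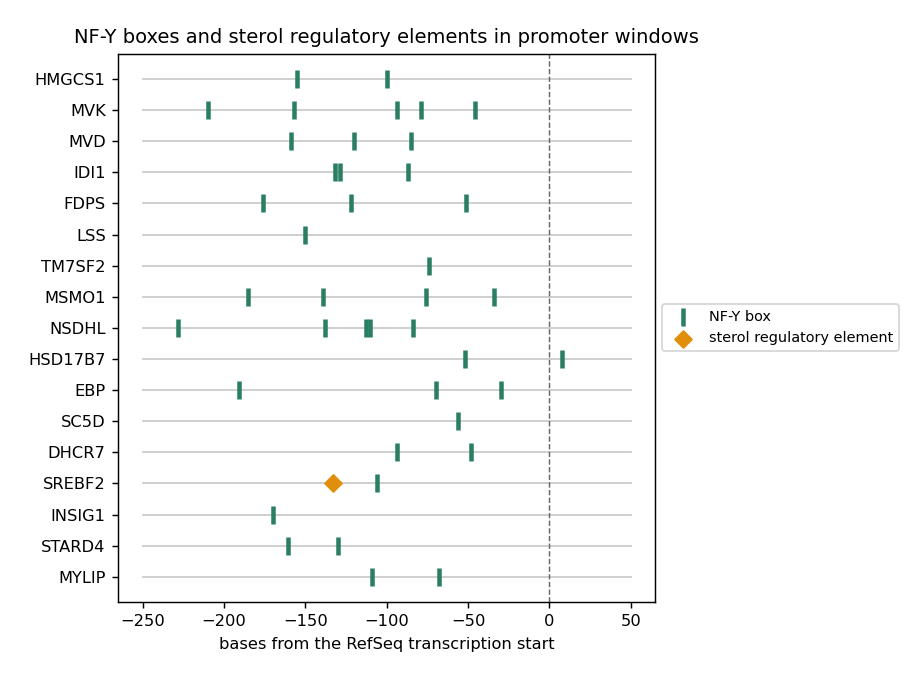
Positions of NF-Y boxes (green bars) and of the sterol regulatory element (orange diamond) in the RefSeq promoter window of each gene with an NF-Y box, as bases from the transcription start, with genes in pathway order. For a gene with several windows the one with most boxes is drawn. A box was found for 17 genes, and the exact letters TCACNCCAC for SREBF2 alone. Other forms of the sterol regulatory element were not searched.

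As a group the sterol genes lay on both sides of the controls after the knockdown. Of the 28 genes, 26 reached 1 FPKM in at least 2 libraries and were tested; ABCA1 and ABCG1 were not. In limma 0 of the 26 passed an adjusted p of 0.05, as did 0 of all 12033 genes tested (0%), and at an unadjusted p under 0.05 the count was 1, DHCR7, where 17.8% of all genes were. Voom on the recovered reads also called 0 of the 26. For 4 sterol genes both knockdown libraries were lower than both controls (EBP, DHCR7, SCAP and STARD4), or 15.4%, against 25.9% of all genes. They lay above for 5 (PMVK, MVD, MSMO1, SC5D and NPC1), or 19.2%, against 27.3% of all genes. With all 4 libraries, groups that do not overlap were thus no more frequent here than over the whole table. The median log2 fold change of the 26 genes was -0.08, beside -0.00075 over all genes, and its sign depended on the library: against the shControl mean it was 0.13 in shFOXM1 1 and -0.17 in shFOXM1 2. Leaving out shFOXM1 2 gave a median of 0.13 and 1 call (MSMO1, higher), or 3.85% of the 26, where 2.34% of all genes were called higher and 2.95% lower. Without shFOXM1 1 the median was -0.17 with 7 calls, all lower (ACAT2, IDI1, EBP, DHCR7, SREBF1, INSIG2 and STARD4), or 26.9%, where 14.5% of all genes were called lower and 11.3% higher. Both fits assume that the lone shFOXM1 library varies as the controls do.

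With a library left out, groups separate more often over all genes too. Below the controls without overlap were 16 sterol genes (61.5%) without shFOXM1 1, 7 (26.9%) without shFOXM1 2, 4 (15.4%) without shControl 1 and 11 (42.3%) without shControl 2, where all genes gave 44.8%, 38.7%, 33.5% and 33.1%. Above the controls were 6 (23.1%), 14 (53.8%), 6 (23.1%) and 6 (23.1%) in the same order, where all genes gave 42.3%, 44.3%, 34.2% and 35.2%. Without shFOXM1 1 the share of sterol genes below the controls thus exceeded that of all genes (61.5% beside 44.8%). Without shFOXM1 2 the share above was nearer to that of all genes (53.8% beside 44.3%). Each of these comparisons rests on 1 shFOXM1 library. Their median was 0.0024 without shControl 1 and -0.14 without shControl 2.

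**Figure D2:**
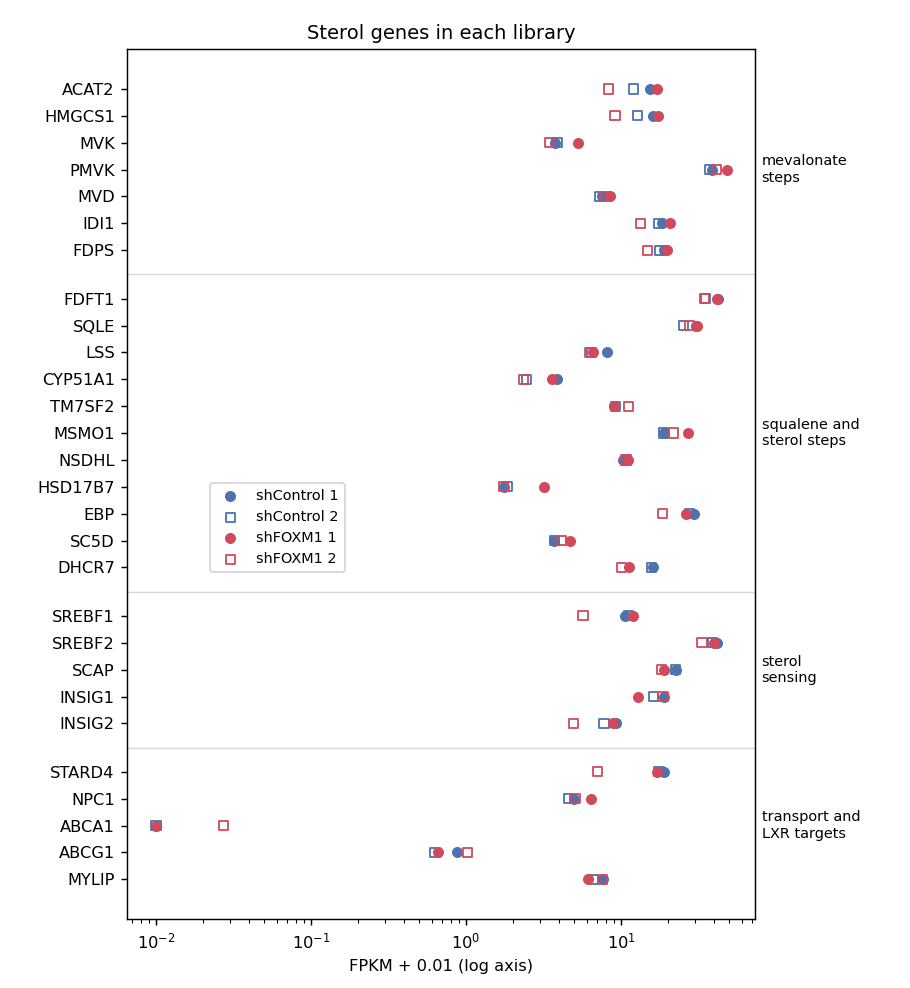
Level of each of the 28 genes in each library, as FPKM + 0.01 on a log axis, grouped by role, with filled circles for library 1 and open squares for library 2 of shControl (blue) and shFOXM1 (red). The tested genes have means of 2.11 to 41.1 FPKM with the colours mixed, while ABCG1 is near 1 FPKM and ABCA1 near 0.

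The 7 genes of the mevalonate steps all lay above the shControl mean in shFOXM1 1, and 5 of them lay below it in shFOXM1 2. ACAT2 makes acetoacetyl-CoA, which opens the pathway, and HMGCS1, the SREBP-regulated HMG-CoA synthase, takes the next step. ACAT2 (chromosome 6, 159760328 to 159779055) was at 15.4 (shControl 1), 12.1 (shControl 2), 16.9 (shFOXM1 1) and 8.32 FPKM (shFOXM1 2). HMGCS1 (chromosome 5, 43289395 to 43313512) had 16.0 (shControl 1), 12.7 (shControl 2), 17.2 (shFOXM1 1) and 9.13 FPKM (shFOXM1 2). For both genes shFOXM1 1 was the highest and shFOXM1 2 the lowest of the 4 libraries, and the shControl libraries lay between. The ratio of HMGCS1 to ACAT2 stayed at 1.04, 1.06, 1.02 and 1.10 in shControl 1, shControl 2, shFOXM1 1 and shFOXM1 2, a narrow range although each gene alone varied widely. ACAT2 overlaps TCP1 on the other strand over 558 bases; TCP1 held 7117, 7258, 7110 and 5320 reads in the same order, strand use in counting is not stated, and its part in the ACAT2 value was not tested.

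The log2 fold changes of ACAT2 and HMGCS1 were -0.18 (SE 0.34) and -0.17 (SE 0.31), with adjusted p of 0.812 and 0.807 in limma. Their 95% intervals, -1.05 to 0.70 and -0.97 to 0.63, span changes of either sign. Both turned to a positive sign (0.29 and 0.26) without shFOXM1 2.

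Mevalonate is phosphorylated by MVK and then PMVK, and MVD decarboxylates the product to isopentenyl pyrophosphate. PMVK (chromosome 1, 154924734 to 154936991) was the most abundant of the 7, at 38.5 (shControl 1), 37.0 (shControl 2), 48.0 (shFOXM1 1) and 41.1 FPKM (shFOXM1 2), so both shFOXM1 libraries were above both controls. MVD had the same order at lower levels, 7.57 and 7.23 against 8.48 and 7.90 FPKM (here and below, shControl 1 and 2 against shFOXM1 1 and 2). MVK was at 3.73 and 3.85 against 5.23 and 3.45 FPKM, where shFOXM1 1 alone stood apart from the other libraries. Log2 fold changes were 0.23 (SE 0.12) for PMVK, 0.13 (SE 0.12) for MVD and 0.14 (SE 0.20) for MVK, and none passed (limma, adjusted p = 0.390, 0.590 and 0.740). MVK turned negative (-0.10) without shFOXM1 1.

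IDI1 converts isopentenyl to dimethylallyl pyrophosphate, and FDPS joins these units to farnesyl pyrophosphate, the branch point to sterols and to protein prenylation. IDI1 was at 18.2 (shControl 1), 17.6 (shControl 2), 20.6 (shFOXM1 1) and 13.3 FPKM (shFOXM1 2), and FDPS at 19.0 and 17.6 against 19.7 and 14.8 FPKM. In both, shFOXM1 1 was highest and shFOXM1 2 lowest, as for HMGCS1. Their log2 fold changes were -0.11 (SE 0.22) and -0.09 (SE 0.17) (limma, adjusted p = 0.828 and 0.797), and both signs turned (0.19 and 0.10) without shFOXM1 2. FDPS has 8 pseudogene copies in the table, which held at most 4 reads together in a library, and overlaps RUSC1-AS1 on the other strand (91 to 136 reads). Strand use and the handling of shared reads in counting are not stated. These reads thus do not show how many were wrongly counted for FDPS or left out of it.

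Squalene synthase (FDFT1) and squalene epoxidase (SQLE) commit carbon to sterols, and LSS folds the epoxide into lanosterol. FDFT1, the most abundant of the 11 genes of squalene and sterol steps, was at 41.9 (shControl 1), 35.1 (shControl 2), 41.7 (shFOXM1 1) and 34.4 FPKM (shFOXM1 2), and its shControl libraries already spanned nearly the same range as its shFOXM1 libraries. SQLE was at 30.3 and 25.1 against 30.8 and 27.8 FPKM, with groups that overlapped. LSS had 8.05 and 6.42 against 6.55 and 6.21 FPKM, where shControl 1 alone was high. CYP51A1, which removes a methyl group from lanosterol, was at 3.87 and 2.46 against 3.56 and 2.34 FPKM, split by library number in both groups. Log2 fold changes of these 4 genes ran from -0.15 (LSS) to 0.08 (SQLE), with SE of 0.14 to 0.25 and adjusted p of 0.618 to 0.967 in limma. CYP51A1 and FDFT1 turned positive without shControl 1 (0.18 and 0.11) or without shFOXM1 2 (0.15 and 0.12), and SQLE turned negative (-0.05) without shControl 2. CYP51A1 is overlapped by 2 gene models on its own strand that are listed at 0, and how reads were shared between them is not stated.

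MSMO1, the sterol C4-methyl oxidase, was among the 5 genes with both shFOXM1 libraries above both controls. MSMO1 (chromosome 4, 165327623 to 165343160) was at 18.9 (shControl 1), 18.8 (shControl 2), 26.8 (shFOXM1 1) and 21.8 FPKM (shFOXM1 2), or 18.9 ± 0.0946 against 24.3 ± 3.56 FPKM (group means ± SD, n = 2). Its shControl libraries differed by less than 1%, and shFOXM1 1 stood above shFOXM1 2. The log2 fold change was 0.34 (SE 0.14) with a 95% interval of -0.01 to 0.70, which did not pass (limma, adjusted p = 0.294); MSMO1 passed without shFOXM1 2, where the value was 0.49, and was at 0.20 without shFOXM1 1. NSDHL and HSD17B7 complete the removal of the C4 methyl groups after MSMO1. NSDHL was at 10.3 and 10.8 against 11.1 and 10.7 FPKM and differed from the shControl mean by at most 0.07 (log2) in either shFOXM1 library. HSD17B7 was at 1.74 and 1.83 against 3.15 and 1.73 FPKM, so that shFOXM1 1 alone was high, and its fold change of 0.27 turned to -0.03 without that library. The pseudogene copies of HSD17B7 held 46, 43, 61 and 40 reads beside 118, 129, 223 and 126 of the gene, so reads may be split between them.

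The other genes of squalene and sterol steps differed in direction. TM7SF2, a sterol C14 reductase, was at 8.99 and 9.15 against 8.94 and 11.1 FPKM, with shFOXM1 2 alone above the rest. SC5D, the lathosterol desaturase, was at 3.67 and 3.69 against 4.69 and 4.10 FPKM, and both shFOXM1 libraries were above both controls, with a log2 fold change of 0.20 (SE 0.13) (limma, adjusted p = 0.457). EBP, the sterol isomerase that acts before SC5D, was on the other side at 29.3 and 27.5 against 26.2 and 18.6 FPKM, with a log2 fold change of -0.35 (SE 0.19) (limma, adjusted p = 0.385). TM7SF2 turned to -0.02 without shFOXM1 2, and EBP passed, at -0.59, without shFOXM1 1 but was at -0.11 without shFOXM1 2.

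DHCR7, the reductase that yields cholesterol from its last precursor, had the smallest p of the sterol genes with all 4 libraries. DHCR7 (chromosome 11, 71428193 to 71452868, minus strand) was at 16.1 (shControl 1), 15.8 (shControl 2), 11.2 (shFOXM1 1) and 10.1 FPKM (shFOXM1 2), or 15.9 ± 0.226 against 10.6 ± 0.751 FPKM (group means ± SD, n = 2), from 951, 969, 688 and 641 reads. The libraries of each group lay close together and the groups were well apart. Its log2 fold change was -0.54 (SE 0.11), with a 95% interval of -0.84 to -0.25 and an adjusted p of 0.183 (limma), so it did not pass. It passed without shFOXM1 1, at -0.61. The antisense gene AP002387.1 overlaps DHCR7 and held 96, 123, 95 and 121 reads in the same library order, and its part in the DHCR7 value was not tested. With 2 libraries against 2, the smallest two-sided exact permutation p for any single gene is 0.3333.

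**Figure D3:**
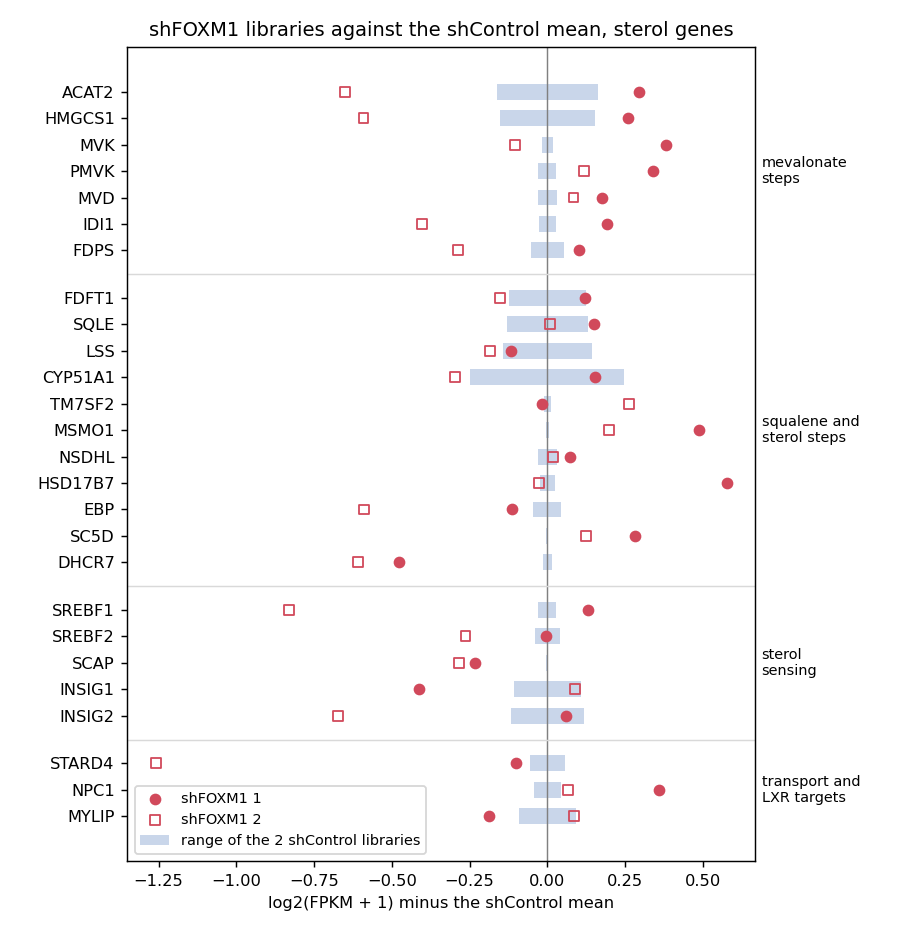
Difference of each shFOXM1 library from the shControl mean on the log2(FPKM + 1) scale for the 26 tested genes, grouped by role, with the bar showing the range of the 2 shControl libraries. Filled circles (shFOXM1 1) lie mostly right of open squares (shFOXM1 2); DHCR7 and SCAP have both well to the left, and MSMO1 and PMVK both to the right.

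All 5 genes of sterol sensing had a log2 fold change below 0, as did 6025 of all 12033 genes. The groups did not overlap for 1 of the 5, SCAP, where 25.9% of all genes lay below the controls without overlap. For SREBF1, INSIG1 and INSIG2 the sign turned when 1 shFOXM1 library was left out. SREBF2 was at -0.0049 without shFOXM1 2. SCAP, the sterol-sensing escort of SREBP, was at 22.5 (shControl 1), 22.4 (shControl 2), 19.0 (shFOXM1 1) and 18.3 FPKM (shFOXM1 2). The libraries of each group lay close together, and the log2 fold change was -0.26 (SE 0.10) with a 95% interval of -0.53 to 0.01 (limma, adjusted p = 0.295). SREBF2 encodes the SREBP that drives cholesterol genes and was the most abundant of the 5, at 41.3 and 38.9 against 39.9 and 33.2 FPKM. SREBF1, whose products favour fatty acid genes, was at 10.6 (shControl 1), 11.1 (shControl 2), 11.99 (shFOXM1 1) and 5.67 FPKM (shFOXM1 2). In SREBF1 the library shFOXM1 2 alone was low, and the log2 fold change of -0.35 (SE 0.33) turned to 0.13 without it, while SREBF1 passed (at -0.83) without shFOXM1 1. The ratio of SREBF2 to SREBF1 was 3.88 and 3.51 in shControl and 3.33 and 5.86 in shFOXM1. SREBF1 overlaps RAI1 on the other strand over 1055 bases, with 1451, 1670, 1345 and 1655 RAI1 reads, a part that was not tested.

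INSIG1 and INSIG2 both retain SCAP, and INSIG1 is itself an SREBP target. INSIG1 was at 18.9 (shControl 1), 16.1 (shControl 2), 12.9 (shFOXM1 1) and 18.6 FPKM (shFOXM1 2), and INSIG2 at 9.29 (shControl 1), 7.74 (shControl 2), 8.89 (shFOXM1 1) and 4.95 FPKM (shFOXM1 2). They went opposite ways between the shFOXM1 libraries: INSIG1 was lowest in shFOXM1 1, and INSIG2 was lowest in shFOXM1 2. The ratio of INSIG1 to INSIG2 was 2.03 and 2.09 in shControl, 1.45 in shFOXM1 1 and 3.76 in shFOXM1 2, on both sides of a narrow control range. Neither passed, with log2 fold changes of -0.16 (SE 0.20) and -0.31 (SE 0.27) (limma, adjusted p = 0.706 and 0.588). INSIG1 turned to 0.09 without shFOXM1 1, and INSIG2 to 0.06 without shFOXM1 2 and to a called -0.67 without shFOXM1 1.

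Among the transport genes STARD4 and NPC1 lay on opposite sides of the controls. STARD4, a soluble carrier that moves cholesterol between membranes and is an SREBP target, was at 19.0 (shControl 1), 17.5 (shControl 2), 17.0 (shFOXM1 1) and 7.05 FPKM (shFOXM1 2) (chromosome 5, 111496033 to 111512590). The first 3 values lie close together, and shFOXM1 2, from 611 reads against 1427 to 1536, stood alone. The log2 fold change was -0.68 (SE 0.39) with a 95% interval of -1.68 to 0.32 (limma, adjusted p = 0.413), and was -0.10 for shFOXM1 1 and -1.26 for shFOXM1 2 against the shControl mean; without shFOXM1 1 it passed. NPC1, which exports cholesterol from lysosomes, was at 4.95 and 4.60 against 6.40 and 5.03 FPKM, with both shFOXM1 libraries above the controls and a log2 fold change of 0.21 (SE 0.15) (limma, adjusted p = 0.502), which was 0.07 without shFOXM1 1 and 0.36 without shFOXM1 2. NPC1 overlaps RMC1 on the other strand, which held 271, 309, 328 and 282 reads.

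Of the genes listed here as LXR targets, ABCA1 and ABCG1 were scarce and MYLIP was not. MYLIP, the ligase that marks lipoprotein receptors for degradation, was at 7.64 (shControl 1), 6.62 (shControl 2), 6.13 (shFOXM1 1) and 7.62 FPKM (shFOXM1 2), with groups that overlapped; its log2 fold change of -0.05 (SE 0.15) turned positive without shControl 1 or shFOXM1 1 (0.04 and 0.09). ABCG1, a cholesterol efflux pump, was at 0.863 and 0.620 against 0.651 and 1.01 FPKM, under the level tested in all but 1 library, from 56 to 94 reads. ABCA1, the efflux pump that loads apolipoproteins, had 0 reads in 3 libraries and 3 reads in shFOXM1 2, a level of 0.0173 FPKM. A count of 0 allows up to 0.0186, 0.0179 and 0.0179 FPKM (3 reads) in shControl 1, shControl 2 and shFOXM1 1, so no difference was detectable at this depth.

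The clearest regularity lay between the libraries of a group. Of the 26 genes, 23 were lower in shFOXM1 2 than in shFOXM1 1 (53.3% of all genes were), with a median log2 difference of -0.28 beside -0.03 over all genes. The difference exceeded counting error for 17 lower and 3 higher sterol genes, or 65.4% and 11.5%, where 32.5% and 26.1% of all genes did so. Counting error is here a 95% interval of the ratio from the read counts of both libraries, and it covers neither culture nor library preparation. The depth implied by the FPKM scale stood -1.44% (shFOXM1 1) and 3.80% (shFOXM1 2) from the recovered reads. Ratios of shFOXM1 2 to shFOXM1 1 are thus slightly lower in FPKM, for all genes alike. These counts were not repeated with scaling to recovered reads, where ratios just under 1 could pass 1. The ratio of shFOXM1 2 to shFOXM1 1 was 0.416 (95% counting interval 0.378 to 0.457) for STARD4, 0.473 (95% counting interval 0.432 to 0.518) for SREBF1, 0.492 (95% counting interval 0.443 to 0.545) for ACAT2 and 0.529 (95% counting interval 0.481 to 0.582) for HMGCS1. INSIG1, TM7SF2 and MYLIP were the 3 on the other side, with ratios of 1.45 (95% counting interval 1.32 to 1.59), 1.24 (95% counting interval 1.10 to 1.40) and 1.24 (95% counting interval 1.06 to 1.46). The mevalonate genes were all lower in shFOXM1 2, with a median of -0.49. The drop was not particular to the sterol genes. Of 31 tested related lipid genes, described below, 22 were lower in shFOXM1 2 (71.0%) and 9 higher, with a median of -0.17. Beyond counting error 17 of these were lower and 6 higher (54.8% and 19.4%). All 7 fatty acid genes and 7 of 8 SREBP processing genes were lower, but only 2 of 8 genes of transport, storage and LXR.

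A smaller difference of the same sign separated the controls. Of the 26 genes 20 were lower in shControl 2 than in shControl 1 (47.4% of all genes were), with a median of -0.08 beside 0.01 over all genes. Beyond counting error 10 were lower and 0 higher (38.5% and 0%), where 11.8% and 14.5% of all genes were. The ratio of shControl 2 to shControl 1 was 0.635 (95% counting interval 0.509 to 0.792) for CYP51A1, 0.785 (95% counting interval 0.713 to 0.863) for ACAT2, 0.798 (95% counting interval 0.730 to 0.872) for HMGCS1 and 0.798 (95% counting interval 0.721 to 0.883) for LSS. FDFT1, SQLE, INSIG1, INSIG2, STARD4 and SREBF2 were the others that were lower. Sterol genes thus varied between libraries of the same label. The mitochondrial share of reads was 5.93 and 5.88% in shControl and 5.72 and 4.98% in shFOXM1, and its part in these differences was not tested. The summed T cell markers were at 699 FPKM in shFOXM1 1 and 513 FPKM in shFOXM1 2, with IL2RA at 258 and 249 against 354 and 141 FPKM. PTPRC, CD2, CCR4 and TNFRSF8 were also lower in shFOXM1 2 than in shFOXM1 1. In the other direction, CD3D was at 95.1 (shFOXM1 1) and 154 FPKM (shFOXM1 2), CD3G at 19.2 and 20.8 FPKM and IL2RG at 15.8 and 23.4 FPKM. The scarce CD3E was higher in shFOXM1 2 too, so the T cell markers did not move as a group. The summed B cell markers, of which 1 of 5 reached 1 FPKM in 2 libraries and MS4A1 was listed at 0, were at 1.92 and 1.71 against 0.378 and 7.80 FPKM. Most of that was CD79A, at 1.73 and 1.44 against 0.270 and 7.38 FPKM. IL2RA was lower and CD79A higher in shFOXM1 2 than in shFOXM1 1, and their part in the sterol gene differences was not tested.

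**Figure D4:**
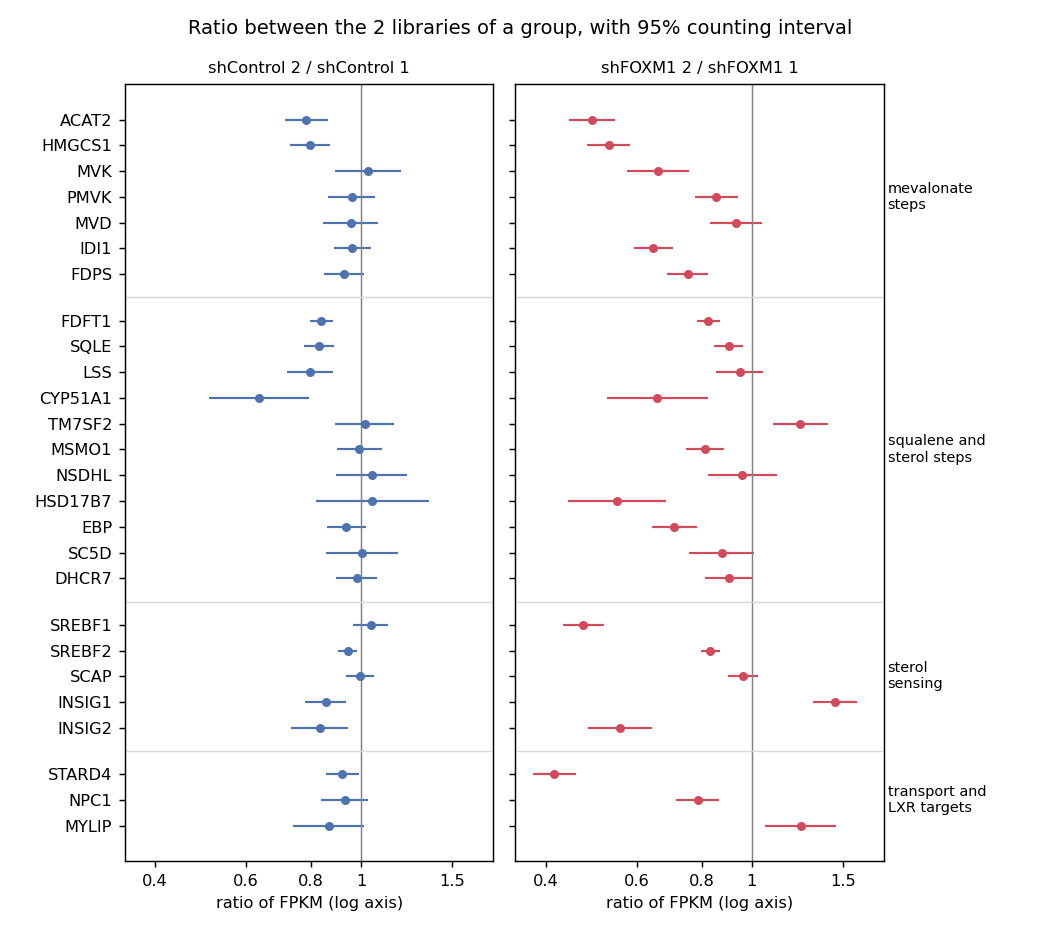
Ratio of FPKM between the 2 libraries of each group on a log axis for the 26 tested genes, shControl on the left and shFOXM1 on the right, with 95% counting intervals as bars. In shControl 20 and in shFOXM1 23 of the 26 points lie below 1, and the shFOXM1 ratios reach 0.416 (STARD4).

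Set against the mean of both controls, 10 of the 26 genes lay above the shControl mean in shFOXM1 1 and below it in shFOXM1 2 (19.0% of all genes did), and 3 the other way (14.8% of all genes). In the same direction in both libraries were 7 above and 6 below, where 34.5% and 31.7% of all genes were. The mean level of the tested sterol genes over all libraries ran from 2.11 to 41.1 FPKM with a median of 13.2, beside 7.10 over all genes tested. The 28 genes lie on 18 chromosomes.

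Among related lipid genes, listed by pathway, 23 log2 fold changes were below 0 and 8 above, beside 6025 and 6008 of all 12033 genes. Of 34 listed, 31 were tested (not FAXDC2, CH25H and ELOVL6) and 0 passed in limma or in voom. At an unadjusted p under 0.05 in limma 6 were lower and 0 higher. Of all 12033 genes 1082 were lower and 1061 higher. Both directions together made 17.8%, so this share is not the one to set beside the lower genes alone. Both shFOXM1 libraries lay below both controls for 14 of the 31, or 45.2%, and above for 3, or 9.68%, beside the 25.9% and 27.3% of all genes. The median log2 fold change was -0.13. Without shFOXM1 1 the test called 11 of the 31 lower (35.5%, beside 14.5% of all genes), and without shFOXM1 2 it called 1 lower, SOAT1 (3.23%, beside 2.95% of all genes).

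SOAT1, which esterifies cholesterol for storage in droplets, had the smallest p of these genes with all 4 libraries. SOAT1 was at 10.1 (shControl 1), 10.1 (shControl 2), 5.36 (shFOXM1 1) and 6.37 FPKM (shFOXM1 2), with the 2 control values nearly equal and both shFOXM1 values far below. Its log2 fold change was -0.70 (SE 0.13) with a 95% interval of -1.03 to -0.36 (limma, adjusted p = 0.176), and SOAT1 was called when either shFOXM1 library was left out (-0.59 and -0.80). TMEM97, a sterol-regulated partner of NPC1, was at 33.1 and 38.0 against 27.0 and 17.8 FPKM, and GGPS1, which makes the geranylgeranyl group for prenylation, was on the other side at 1.70 and 1.74 against 2.27 and 2.55 FPKM. Their log2 fold changes were -0.67 (SE 0.22) and 0.32 (SE 0.15) (limma, adjusted p = 0.240 and 0.329). TMEM97 was called without shFOXM1 1, at -0.96.

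The fatty acid genes under SREBP all had a log2 fold change below 0, 7 of the 7 tested, as did 6025 of all 12033 genes. For 6 of the 7 (85.7%) the groups did not overlap, beside 25.9% of all genes. ELOVL6 was listed at 0 in every library. The exception was FASN, the fatty acid synthase, at 150 and 162 against 158 and 119 FPKM. LPIN1, named because it differed least of the 6, was at 9.23 and 8.97 against 8.90 and 8.74 FPKM, a log2 fold change of -0.04. FADS1, also among the 6, lies within FADS2 on the other strand, and whether they share reads was not tested. FADS2, a fatty acid desaturase, was at 16.2 (shControl 1), 17.2 (shControl 2), 13.4 (shFOXM1 1) and 11.1 FPKM (shFOXM1 2), and ACSL3, an acyl-CoA synthetase of lipid droplets, at 8.87 and 9.91 against 7.36 and 6.44 FPKM. Their log2 fold changes were -0.42 (SE 0.14) and -0.40 (SE 0.13) (limma, adjusted p = 0.237 and 0.241), and both were called without shFOXM1 1 (-0.55 and -0.48). SCD, the stearoyl-CoA desaturase, chosen after its values were seen, was at 78.2 (shControl 1), 70.4 (shControl 2), 59.0 (shFOXM1 1) and 27.1 FPKM (shFOXM1 2), where shFOXM1 2 was again the lowest. The median log2 fold change of the 7 was -0.40, with medians of -0.13 in shFOXM1 1 and -0.48 in shFOXM1 2 against the shControl mean. Here, unlike in the mevalonate steps, shFOXM1 1 also lay below the controls for 6 of 7 genes; the difference between these lists was not tested.

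Of the remaining related genes, the 8 of SREBP processing and sterol-regulated degradation had a median of 0.01. Against the shControl mean their median was 0.12 in shFOXM1 1 and -0.18 in shFOXM1 2, on opposite sides. The 8 of transport, storage and LXR had a median of -0.01, with -0.04 in shFOXM1 1 and 0.06 in shFOXM1 2. OSBP, a sterol exchanger, was at 19.6 and 18.8 against 19.3 and 23.5 FPKM, and STARD3, a late endosomal sterol carrier, at 14.3 and 15.7 against 15.8 and 16.7 FPKM. NR1H3, which encodes LXR alpha, was at 2.30 and 2.00 against 1.98 and 3.21 FPKM. Log2 fold changes were 0.14 (SE 0.14), 0.11 (SE 0.11) and 0.17 (SE 0.21), and none passed (limma, adjusted p = 0.617, 0.639 and 0.704); NR1H3 turned to -0.08 without shFOXM1 2. The 8 sterol and isoprenoid side steps had a median of -0.24, with 6 genes below without overlap (75.0%, beside 25.9% of all genes) and 1, GGPS1, above (12.5%, beside 27.3%).

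**Figure D5:**
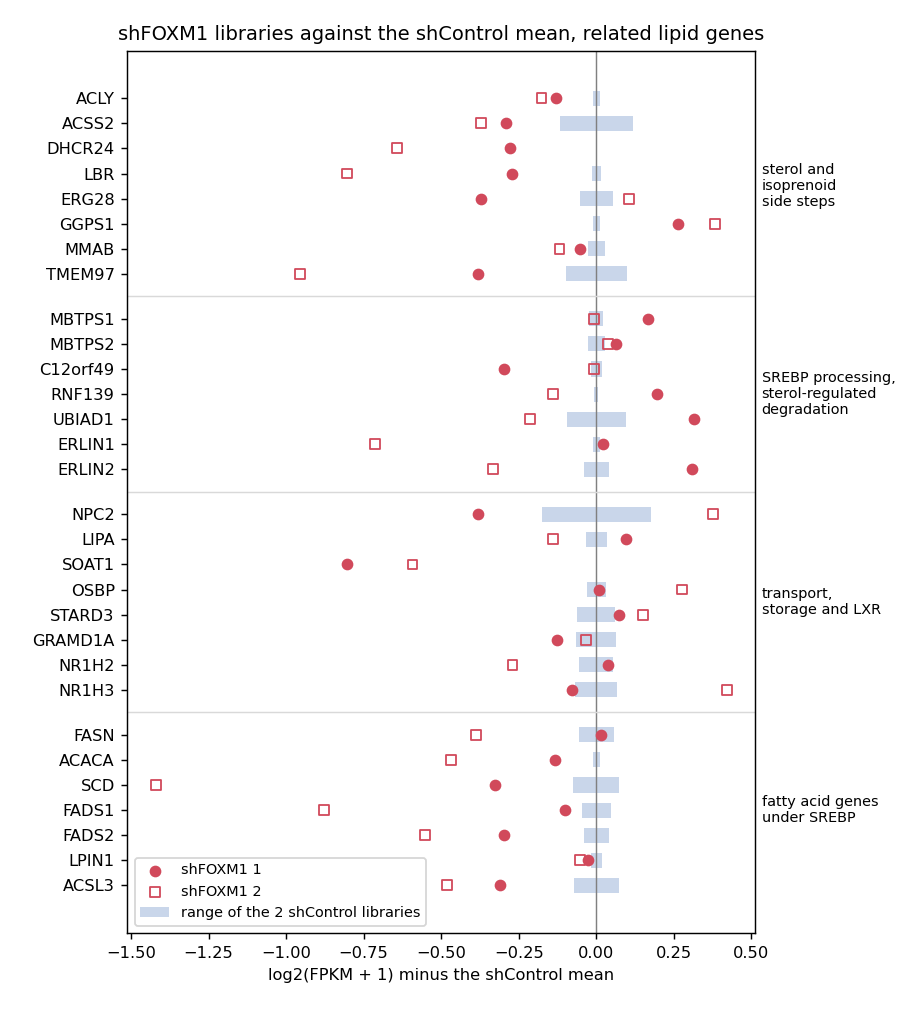
Difference of each shFOXM1 library from the shControl mean on the log2(FPKM + 1) scale for 30 of the 31 tested related lipid genes, drawn as for the sterol genes, with bars for the range of the 2 shControl libraries. Both points of SOAT1, TMEM97, FADS2 and ACSL3 lie to the left of the controls and both of GGPS1 to the right.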

How the data were processed

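The authors deposited 1 table of FPKM (fragments per kb of gene, scaled to depth) for 4 Myla libraries, with the gene length used, per the file headers. The sources used here give no aligner, counter or strand setting. GRCm38 and mm10 stand in the submitters' processing notes, yet all 58735 gene identifiers and coordinates equal those of human GENCODE 29 (GRCh38), whose coordinates are given. Columns named sh0 were taken as shControl, and sh1 and sh2 as shFOXM1 1 and 2; 0 columns belonged to other samples. Multiplied by length, 100% of values came out as whole reads (tolerance 0.001 read), from which depth and counting intervals were computed. Intervals and floors cover counting error only.

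The test used log2(FPKM + 1) of genes that reached 1 FPKM in 2 or more libraries, a scale that understates changes of low genes, and limma 3.58.1 (R 4.3.3; trend, two-sided, Benjamini-Hochberg over all genes). The script was tested on simulated data. The members and gene lists were chosen with earlier results of these data known. All 28 genes are named, and of the related list up to 4 per direction with the smallest unadjusted p. Alternatives were other pseudocounts (0.1, 0.01), filters (none, mean of at least 5 FPKM), quantile normalization, scaling to recovered reads, a replicate block, no trend, voom without and with library weights, and each library left out. Of the related genes 1 is counted in its list but not reported here. Promoter sequences are from RefSeq.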

Additional observations from a re-analysis of the deposited data

How the results depend on the processing

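Apart from leaving out a library, the alternatives changed 0 directions and 0 calls among 334 values of single genes. Voom with library weights, which weighted the shControl libraries 2.63 and 2.62 and the shFOXM1 libraries 0.381 and 0.380, called 31 genes over all genes and 0 sterol genes. Leaving out single libraries gave 0 to 3104 calls over all genes, 0 to 7 sterol genes, 0 to 11 related lipid genes, a sterol median from -0.17 to 0.13, 4 to 16 sterol genes below and 6 to 14 above without overlap; calls came only where a shFOXM1 library was left out, which leaves the spread to be set by the controls. Of 136 such values of single genes 18 turned sign and 13 passed newly. Those with a turn ran from -0.65 to 0.29 for ACAT2, -0.32 to 0.18 for CYP51A1, -0.15 to 0.12 for FDFT1, -0.29 to 0.10 for FDPS, -0.59 to 0.26 for HMGCS1, -0.028 to 0.58 for HSD17B7, -0.40 to 0.19 for IDI1, -0.41 to 0.089 for INSIG1, -0.67 to 0.061 for INSIG2, -0.10 to 0.38 for MVK, -0.19 to 0.087 for MYLIP, -0.078 to 0.42 for NR1H3, -0.051 to 0.21 for SQLE, -0.83 to 0.13 for SREBF1 and -0.019 to 0.26 for TM7SF2. For the genes whose groups did not overlap the same values ran from 0.12 to 0.34 for PMVK, 0.084 to 0.17 for MVD, 0.20 to 0.49 for MSMO1, 0.12 to 0.28 for SC5D, 0.065 to 0.36 for NPC1, -0.59 to -0.11 for EBP, -0.61 to -0.48 for DHCR7, -0.28 to -0.23 for SCAP and -1.26 to -0.10 for STARD4. The cause was not tested.

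With the replicate block limma called 0 genes, and the sterol median was -0.08. Deviations of same-numbered libraries had a correlation of 0.0421 across genes over 2 pairs, and no label says that a number marks a shared batch; whether one was shared was not tested. Depth limits ABCA1 (at most 3 reads) and ABCG1 (at most 94).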
